A study of Mus musculus with 2 samples.

Results

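Proteoglycans are core proteins that carry long sulfated sugar chains, and this account follows the genes for heparan and chondroitin sulfate proteoglycan cores and for the enzymes that build and sulfate their chains. Members were the genes whose array name starts with Chst, Hs2st, Hs3st, Hs6st, Ndst, Chsy, Chpf or Csgalnact, together with Ext1, Ext2, Extl1 to Extl3, Gpc1 to Gpc6, Sdc1 to Sdc4, Acan, Bcan, Ncan and Vcan. The rule picked genes by name, but it was chosen with earlier results of these data known. It found 54 genes on 72 probes, out of 36493 gene names on the array. The brightest probe stood for each gene. One RNA sample came from neural stem and progenitor cells that overexpressed the microRNA miR-153, and the other from cells labelled as the overexpression control. Both cultures started as mouse embryonic stem cells, passed through an embryoid body stage, were grown as tertiary neurospheres at passage 2 and collected at day 18 after the embryoid bodies. Neither the vector nor the mouse strain was given in the sources used here. One-colour arrays measured total RNA, with 1 array per group, both on the same slide, so the differences carry no replicate check and no p-value.

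The chains start on a short linker on the core protein. For heparan sulfate (HS), exostosin enzymes lengthen the chain, N-deacetylase/N-sulfotransferases (Ndst) open it to modification, and 2-O-, 6-O- and 3-O-sulfotransferases then place further sulfates. For chondroitin sulfate (CS) and its epimerised form dermatan sulfate (DS), synthases lengthen the chain and sulfotransferases of the Chst family add sulfate at the 4 or 6 position of N-acetylgalactosamine. The pattern of sulfates sets which growth factors and guidance cues a chain can hold, and in neural tissue the cores include glypicans and syndecans at the cell surface and lecticans in the matrix.

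The overexpressed microRNA is shown first because it is the variable that separates the 2 arrays. RefSeq places its gene on the plus strand of mouse chromosome 12 (GRCm38.p6), at chr12:117250821-117250843 for the 5p arm and chr12:117250860-117250881 for the 3p arm. The labels do not name an arm. Capitals mark the seed, bases 2 to 8, which is the stretch that mainly pairs with target transcripts.
mmu-miR-153-5p: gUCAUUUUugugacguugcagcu
mmu-miR-153-3p: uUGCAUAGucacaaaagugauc

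Members went both ways and, as a set, differed about as often as other genes. A gene counts as detected where the scanner software called its probe well above background. Of the 54, 43 (79.6%) were detected on both arrays, and these are called measured. Among all gene names 56.1% were detected on both, but those names include probe and cDNA identifiers without a gene symbol. The 2 sets are therefore unlike. In miR-153 cells Ndst3, Gpc2, Chst1 and Gpc3 exceeded their control level at least 2-fold, and Chst7, Chst14, Acan, Hs3st6 and Sdc1 were lower by at least that factor. These 4 higher and 5 lower members are 20.9% of the 43. Of all 20456 genes measured on both arrays, 20.3% passed the same rule of size, 9.26% as higher and 11.1% as lower. The small counts by role and by list below are to be read beside these shares. The median log2 difference, miR-153 minus control, was 0.05 over the members and -0.11 over all genes. Above 0 lay 24 members and 8981 of all genes, and below 0 lay 19 members and 11475 of all genes. Several members near 0 changed sign with the scaling. Chst5 and Hs3st2 were detected in miR-153 cells alone, and no member in control cells alone. The other 9 (Extl1, Ndst4, Hs6st3, Hs3st3a1, Hs3st3b1, Chsy3, Chst13, Chst4 and Chst9) were detected on neither array. Of all 36493 gene names, 1953 were detected in miR-153 cells alone, 737 in control cells alone and 13347 on neither array.

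Levels are log2 processed intensity minus log2 of the array's 75th percentile, so 0 marks a probe at that percentile. Different probes bind with different strength, so a level is compared only with the same probe on the other array. Measured members had a signal error of at most 20.4% by the scanner software's own model, and no member probe was spotted more than once. Over 258 repeated probes of other transcripts, the difference varied between spots with a median SD of 0.07, and different probes of a gene varied with an SD of 0.46 over 3445 genes. Of the 43 measured members, 23 differed by more than that second SD. The share over all genes was not counted, so this number shows nothing particular to the members. Both SDs come from the same pair of arrays and do not measure variation between cultures. Of the 9 past 2-fold, 8 had 1 probe on the array, so no second probe checks them. Scaling on spike-in RNA added 0.24 to each log2 difference, and scaling on the median added 0.10. With spike-in scaling 6 members were higher and 5 lower, and of all genes past 2-fold 65.0% were higher, against 45.6% as reported here.

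**Figure D1:**
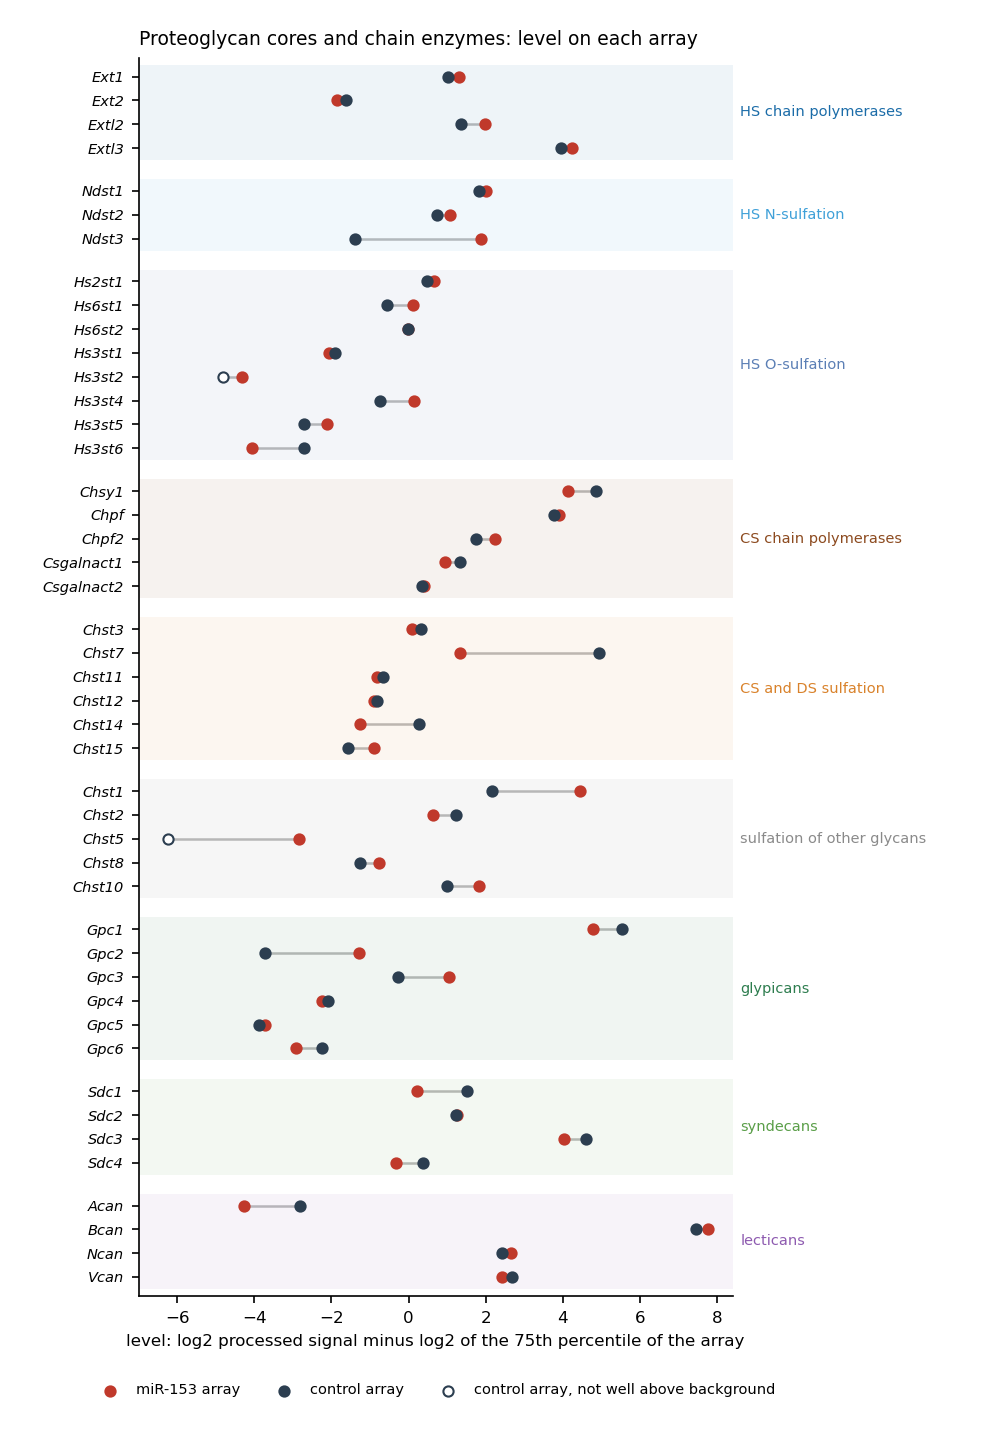
Level of each of the 45 members that were well above background on at least 1 array, by role (HS heparan sulfate, CS chondroitin sulfate, DS dermatan sulfate); the x axis is log2 processed intensity relative to the array's 75th percentile. Red points are the miR-153 array and dark points the control array, open where not well above background; the widest gaps are those of Chst7, Ndst3 and Chst5, the last with an open control point, and most other pairs lie close together.

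Heparan sulfate enzymes were mostly close to their control levels, with Ndst3 standing apart. Of 14 measured, 1 passed 2-fold upward, 1 downward, and 12 did neither, so 14.3% passed, against 20.3% of all genes. The median difference was 0.28, against -0.11 over all genes. Above 0 lay 11 of the 14, and 8981 of all 20456 genes. Among the chain polymerases, Ext1 and Ext2, which together lengthen the chain, differed by 0.28 and -0.23, and Ext2 turned to 0.02 under spike-in scaling. Extl3, which adds the first sugar that commits a chain to heparan sulfate, had a level of 4.24 on the miR-153 array against 3.96 on the control array, a difference of 0.28. Extl2, a related transferase, differed by 0.63.

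Ndst enzymes remove acetyl groups from the chain and put sulfate in their place. Ndst3, a member of the family expressed mainly in brain, had a level of 1.87 on the miR-153 array, against -1.38 on the control array. The scanner signal was 2011 units on the miR-153 array and 167.6 on the control array, so both were detected but the control signal was far dimmer. It was 9.51-fold higher (log2 difference 3.25), which placed it at position 38 from the top among the 20456 genes, on a probe at chr3:123229234-123229293 (mm9). The widely expressed Ndst1 and Ndst2 differed by 0.18 and 0.34, so within this family only Ndst3 passed 2-fold among the 3 measured. The 3 probes of Ndst1 ranged from -0.32 to 0.55.

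Among 7 measured genes of O-sulfation, 1 passed 2-fold downward and 0 upward. Hs2st1, the sole 2-O-sulfotransferase of the family, differed by 0.18, and the 6-O-sulfotransferase genes Hs6st1 and Hs6st2 by 0.69 and 0.01. Among the 3-O-sulfotransferases, whose products are the rarest sulfates of the chain, Hs3st6 was 2.54-fold lower (-1.35), with a level of -4.06 on the miR-153 array against -2.71 on the control array. Both signals were dim, at 32.9 units on the miR-153 array and 66.3 on the control array, and normexp background correction put the difference at -0.68, short of 2-fold. Hs3st4 was at 0.15 on the miR-153 array and -0.73 on the control array, a difference of 0.88 that became 1.12 with spike-in scaling. Hs3st5 differed by 0.61 and Hs3st1 by -0.15, or 0.09 with the spike-in scale. Hs3st2 had a level of -4.32 on the miR-153 array, and its bound was 1.01-fold as reported and below 1 with normexp, so no direction is given. For a gene detected on 1 array, such a bound is taken against a ceiling on the other array: the dimmest detected probe there (-4.34 on the control array), or the gene's own signal where that is brighter.

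Chondroitin and dermatan sulfate enzymes held the largest single difference among the members. Of 11 measured, 0 passed 2-fold upward and 2 downward, or 18.2% against 20.3% of all genes. The median difference was -0.17, against -0.11 over all genes. Below 0 lay 7 of the 11, and 11475 of all 20456 genes. Chst7, a sulfotransferase that acts at the 6 position on chondroitin and on N-acetylglucosamine, had a level of 1.33 on the miR-153 array, against 4.93 on the control array. The scanner signal was 1380 units on the miR-153 array and 13261 on the control array, so both were bright. It was 12.1-fold lower (-3.60), at position 30 from the bottom among all genes, on a probe at chrX:19674422-19674481 (mm9). Chst3, the other chondroitin 6-O-sulfotransferase, had levels of 0.08 and 0.32 on the miR-153 and control arrays, a difference of -0.24. Of these 2 genes of like activity, Chst7 passed 2-fold and Chst3 did not, and Chst7 rests on 1 probe.

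Sulfation at the 4 position showed a similar division. Chst14, which sulfates dermatan sulfate, was 2.88-fold lower (-1.52), with a level of -1.26 on the miR-153 array against 0.27 on the control array, on a probe at chr2:118754205-118754264 (mm9). Chst11 and Chst12, which sulfate chondroitin at the same position, differed by -0.17 and -0.08, and both signs turned under spike-in scaling. Chst15, which adds a second sulfate to 4-sulfated units, differed by 0.67. Among the polymerases, Chsy1 differed by -0.72, and its other probe gave -0.80. Chpf and Chpf2, partners of the synthases, were at 0.13 and 0.50, and Csgalnact1 and Csgalnact2, which start and extend the chain, at -0.40 and 0.05.

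**Figure D2:**
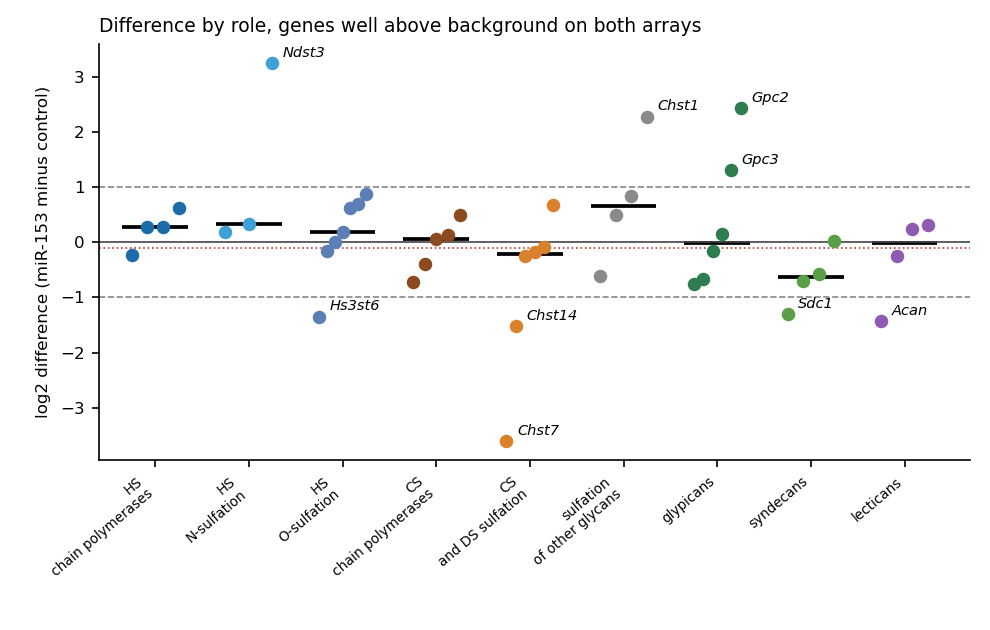
Log2 difference, miR-153 minus control, of the 43 members measured on both arrays, by role; each point is 1 gene, thick bars are role medians, dashed lines mark 2-fold and the red dotted line is the median of all genes (-0.11). The 9 named genes lie outside the dashed lines, and the syndecans have the lowest role median (-0.63).

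Among Chst genes that sulfate other glycans, 1 of 4 measured passed 2-fold upward and 0 downward, and the median difference was 0.66. Chst1, which sulfates galactose in keratan sulfate, had a level of 4.44 on the miR-153 array, against 2.16 on the control array. It was 4.85-fold higher (2.28), on a probe at chr2:92455254-92455313 (mm9). Chst5, which sulfates N-acetylglucosamine, had a level of -2.83 on the miR-153 array and was not detected in control cells, where its own signal was at -6.24. It was at least 2.84-fold higher, a bound that was 1.48-fold with normexp correction. Of 1953 genes detected in miR-153 cells alone, 19.5% had a bound of at least 2-fold. Chst10, which sulfates the HNK-1 epitope of neural cell adhesion molecules, differed by 0.83, or by 1.08 under spike-in scaling, and Chst8 by 0.49. The 2 probes of Chst2 gave -0.61 and -1.65.

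All 14 core proteins were detected on both arrays. Of these, 2 passed 2-fold upward and 2 downward, or 28.6% against 20.3% of all genes. The median difference was -0.21. Glypicans, which sit in the membrane through a lipid anchor, held the 2 higher ones. Gpc2, known as cerebroglycan and found on growing axons of young neurons, had a level of -1.28 on the miR-153 array, against -3.71 on the control array, where the signal was 33.2 units. It was 5.39-fold higher (2.43, or 1.16 with normexp), on a probe at chr5:138715328-138715387 (mm9). Gpc3, a glypican that restrains growth and hedgehog signalling, had levels of 1.04 and -0.27 on the miR-153 and control arrays and was 2.49-fold higher (1.31), on a probe at chrX:49625740-49625799 (mm9). Its other probe, designed on a testis cDNA, was detected on neither array. Gpc1, the main glypican of the nervous system, differed by -0.76, Gpc6 by -0.67, Gpc4 by -0.16 and Gpc5 by 0.15. Gpc4 turned to 0.08 with spike-in scaling and Gpc5 to -0.19 with normexp.

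Syndecans, the cores that span the membrane, had the lowest role median at -0.63, which ranged from -0.64 to -0.39 over the alternatives. Sdc1, the form best known from epithelia, was 2.47-fold lower (-1.30), with a level of 0.21 on the miR-153 array against 1.52 on the control array, on a probe at chr12:8799383-8799442 (mm9). Sdc3, also called N-syndecan for its neural expression, differed by -0.57 and Sdc4 by -0.70, short of 2-fold. Sdc2 had levels of 1.24 and 1.23 on the miR-153 and control arrays, a difference of 0.02.

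Lecticans, chondroitin sulfate proteoglycans that bind hyaluronan in brain matrix, had 1 of 4 past 2-fold, the dim Acan, which was lower. Bcan (brevican) had a level of 7.77 on the miR-153 array, against 7.45 on the control array, a difference of 0.32. That value depended on the processing, at 0.96 with lowess and -0.19 as the mean of its probes. Ncan (neurocan) differed by 0.23. The Bcan probe for transcript variant 1 differed by 0.32 and the probe for variant 2 by -0.70, with levels of 2.18 and 2.88 on the miR-153 and control arrays for the second. The 3 probes of Vcan (versican) gave -1.05, -0.26 and -0.25, where the first was the dimmest. Acan (aggrecan) was 2.70-fold lower (-1.43), with a level of -4.25 on the miR-153 array against -2.82 on the control array, and normexp put it at -0.66.

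**Figure D3:**
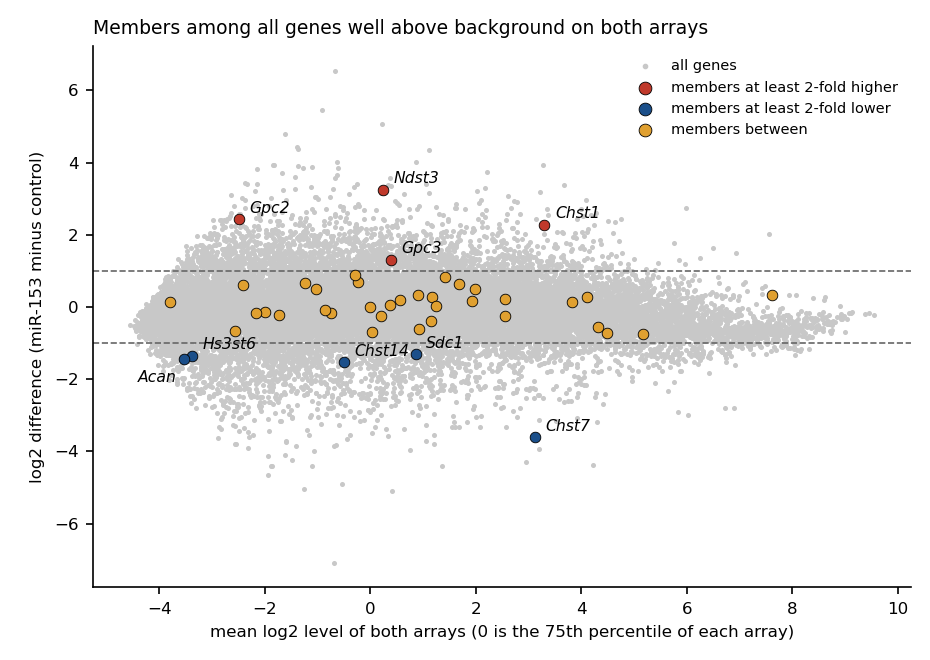
Log2 difference, miR-153 minus control, against mean log2 level for the 20456 genes measured on both arrays (grey) with the 43 measured members in colour; dashed lines mark 2-fold. Chst7 (-3.60) and Ndst3 (3.25) lie near the edge of the cloud at their levels, and the 34 members between the lines lie inside it.

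Promoters are shown for the 4 lower members that have a RefSeq promoter entry. The 4 higher members have entries too and are counted below, but their sequences are not shown. In all, 43 of the 54 members have entries, and Hs3st6 is not among them. Each line gives the 250 bases before the start, 5′ to 3′ on the gene's strand (GRCm38.p6): chrX:20059320-20059569 for Chst7, chr2:118926247-118926496 for Chst14, chr7:79052976-79053225 for Acan and chr12:8771146-8771395 for Sdc1, all on the plus strand. Capitals mark ACGTG or GCGTG on either strand, the core letters of the hypoxia response element, searched because low oxygen response genes were lower in miR-153 cells.
Chst7: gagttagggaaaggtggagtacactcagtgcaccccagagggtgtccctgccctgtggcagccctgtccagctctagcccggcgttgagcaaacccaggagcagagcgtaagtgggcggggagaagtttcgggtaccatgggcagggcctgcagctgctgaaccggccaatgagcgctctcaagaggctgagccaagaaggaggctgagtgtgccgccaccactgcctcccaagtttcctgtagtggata
Chst14: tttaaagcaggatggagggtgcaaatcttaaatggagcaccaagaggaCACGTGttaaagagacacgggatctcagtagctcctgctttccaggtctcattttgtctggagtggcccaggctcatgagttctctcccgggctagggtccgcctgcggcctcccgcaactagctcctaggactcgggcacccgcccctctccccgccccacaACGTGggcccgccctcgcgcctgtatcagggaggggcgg
Acan: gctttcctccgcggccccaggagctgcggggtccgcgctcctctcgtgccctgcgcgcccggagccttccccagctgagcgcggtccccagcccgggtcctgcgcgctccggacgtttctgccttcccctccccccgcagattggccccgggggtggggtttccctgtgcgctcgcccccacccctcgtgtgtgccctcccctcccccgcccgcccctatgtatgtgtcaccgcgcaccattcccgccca
Sdc1: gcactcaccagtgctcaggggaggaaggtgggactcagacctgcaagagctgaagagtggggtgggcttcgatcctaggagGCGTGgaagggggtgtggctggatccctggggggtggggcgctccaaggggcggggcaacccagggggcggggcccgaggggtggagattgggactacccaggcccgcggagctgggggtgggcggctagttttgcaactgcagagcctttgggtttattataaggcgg
Chst14 held ACGTG at 2 places, of which the palindrome CACGTG reads as ACGTG on both strands, and Sdc1 held 1 GCGTG. Neither letter string occurred in these windows of Chst7 and Acan. Over 32851 promoters of this length, 38.6% held either string, against 61.2% of the 49 promoters of members. Those promoters were also richer in G and C, with a median of 64.4% against 52.4%. The strings occurred in 2 of 4 promoters of lower members and in 2 of 5 promoters of the 4 higher members. For the 27 members between that have entries, they occurred in 21 of 32 promoters. Among the higher members, Gpc3 held 4 GCGTG and Gpc2 held 1. A match of letters is a description and not a binding site.

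Genes around the members were read from lists of the linker, sulfate supply, chain editing, breakdown and binding partners. Of 8 linker genes, 2 were higher and 0 lower: B3gat3, which adds the last sugar of the linker, at 1.38, and Pxylp1, a phosphatase that lets the chain be extended, at 1.26. Among 8 genes of sulfate donor supply, Papss2, which makes the donor PAPS, was 3.56-fold higher (1.83) and the other 7 lay between. Of those 7, the sulfate transporter gene Slc26a1 was at 0.92, or 1.17 with spike-in scaling and 0.42 with normexp. Of 6 measured epimerase and chain editing genes, 1 was lower. That was Ust, which sulfates uronic acid in chondroitin and dermatan sulfate, at -1.35. All 15 genes of lysosomal breakdown lay between, from -0.58 to 0.94, but 2 of them passed 2-fold under alternatives. Arsb, a sulfatase for chondroitin and dermatan sulfate, was at 0.94, or 1.19 with spike-in scaling and 0.11 with normexp. Idua, the iduronidase of heparan and dermatan sulfate, was at 0.77, or 1.11 as the mean of its probes and 1.01 with spike-in scaling.

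Of 16 measured genes listed as proteoglycan cores outside the members, 4 passed 2-fold upward and 3 downward, 43.8% in all. Over all genes measured on both arrays, 20.3% passed in either direction. The list was chosen with earlier results known, and no test compares its share with that of all genes or of the members. Nrp1 (1.74), Spock1 (1.60, or 0.66 with normexp), Dcn (1.30) and Lum (1.09, or 0.70 with normexp) were higher, and Hspg2 (perlecan, -2.02) and Cd44 (-1.32) were lower, as was Cspg4 by 4.01-fold. Agrn (agrin) was at 0.67, or 1.23 with quantile normalization and 0.22 as the mean of its probes. Spock3, detected in miR-153 cells alone, was at least 2.28-fold higher as processed here. Srgn, detected in control cells alone, was at least 2.37-fold higher in control. Neither bound was recomputed under the alternative settings. Of the lectican partners, Tnc (tenascin C) was 4.41-fold lower (-2.14), the other 3 measured lay between, and 5 of the 9 were detected on neither array. Among the genes for chain receptors and binding proteins, Mdk (midkine) was at 1.04, or 0.90 as the mean of its probes. Ptn (pleiotrophin) and Ptprs, a receptor phosphatase, were at 0.58 and 0.68, and passed 2-fold with quantile normalization at 1.18 and 1.28. The receptor gene Rtn4r, detected in miR-153 cells alone, was at least 2.98-fold higher as processed here, a bound also not recomputed under the alternatives. Of 4 FGF receptors, whose signalling needs heparan sulfate, Fgfr4 was at -1.41, or -0.99 with normexp, and the other 3 lay between.

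**Figure D4:**
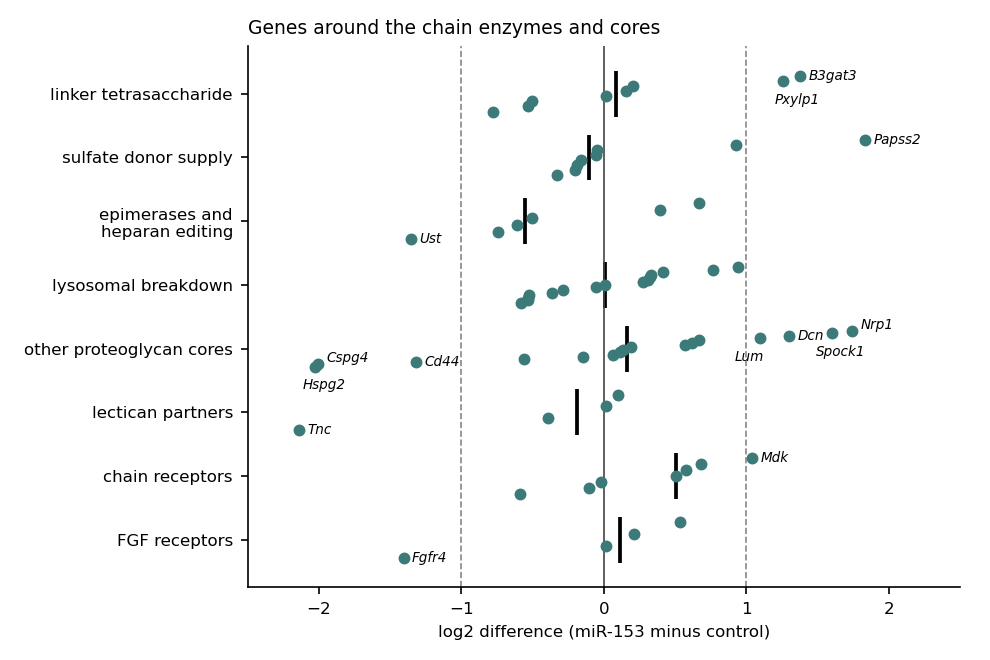
Log2 difference, miR-153 minus control, of genes outside the members that act on the same chains, measured on both arrays; each point is 1 gene, vertical bars are list medians and dashed lines mark 2-fold. The cores outside the rule spread widest, from -2.02 to 1.74, and the 15 breakdown genes all lie between the dashed lines.

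Some lists of marker genes of cell types and states in the culture also differed between the arrays, and others differed little. All 8 neural progenitor markers, the labelled cell type, were detected on both arrays. Of these, 2 passed 2-fold upward in miR-153 cells and 0 downward, Prom1 at 1.74 and Sox1 at 1.15, while Nes was at -0.95, and the median difference was 0.17. Among neuron markers, 5 of 8 passed 2-fold upward in miR-153 cells (median level 3.63, against 2.23 on the control array). Oligodendrocyte lineage markers did so in 5 of 9, with 3 below 0, of which Cspg4 was at least 2-fold lower. Mesenchyme markers were higher in 4 of 6 (median level -0.20, against -0.65 on the control array), and Dcn and Lum are among those 4. Astrocyte markers were higher in 1 of 6 and lower in 0. Among pluripotent cell markers 1 of 2 measured was lower, Esrrb at -2.48. Past 2-fold were 0 of 2 measured endothelium markers and 0 of 1 measured for microglia and blood. Proliferation markers were lower in 5 of 5 (median level 2.01, against 4.52 on the control array) and genes of the response to low oxygen in 7 of 7 (median level -1.23, against 2.85). The part of these shifts in the differences of Ndst3, Gpc2, Chst7 and the other members was not tested. In bulk RNA, fewer cells of a type and less RNA per cell cannot be told apart.

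**Figure D5:**
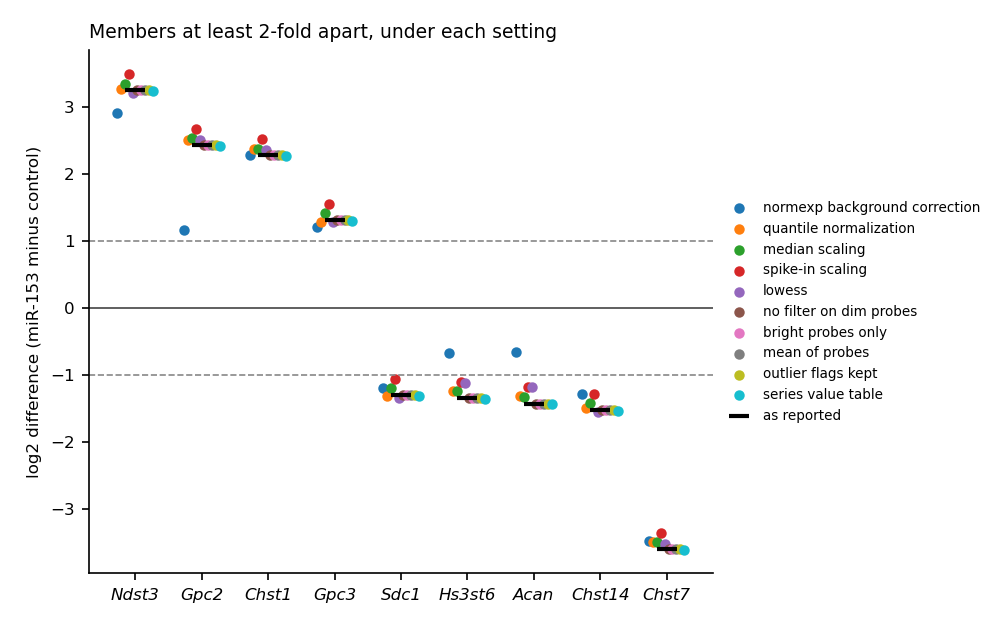
Log2 difference, miR-153 minus control, of the 9 members at least 2-fold apart under the 10 alternative settings (coloured points) and as reported (black bars); dashed lines mark 2-fold. No point crosses 0, and the points inside the dashed lines are Hs3st6 and Acan with normexp background correction.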

How the data were processed

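The scanner files hold spot intensity on a linear scale, extracted from 1-colour (Cy3) arrays with version 10.7.3.1 of Agilent Feature Extraction (named in the submitters' processing notes). Background subtraction and detrending were switched on in that software, per the file headers. The deposited series table holds the same intensity divided by a constant per array, and served as an alternative. Each array had 59305 non-control spots, of which 32969 on the miR-153 array and 31132 on the control array were well above background; 0 were saturated, and the 75th percentile of signal was 549 and 435 units.

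Levels were log2 signal minus log2 of the array's 75th percentile. Spots flagged as outliers (229, none of a member) were left out. Probes were named through unversioned RefSeq accessions (47.2% matched), otherwise as in the file; probe positions are on mm9 per the file headers. A 2-fold difference is a rule of size, not a test. The code for the fold rule was run on a simulated copy of the control array, with planted differences larger than the rule and little noise. Those settings fixed the outcome, so the run checks the code only and gives no error rate for these data. Members, lists and promoter motifs were chosen with earlier results of these data known. Every member is accounted for. Other genes are named from fixed lists when past 2-fold or bounded past it, by plan at most 6 per list and largest first. The proteoglycan cores outside the members exceed that limit, since all that passed or were bounded past 2-fold are named, grouped by direction. Nes and the 6 list genes that pass 2-fold only under an alternative were singled out after their values were seen. Protein sequences were not used here. Python 3.11.15, limma 3.58.1 and R 4.3.3 were used. Having 1 array per group limits the precision of every value.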

Additional observations from a re-analysis of the deposited data

How the results depend on the processing

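The 10 alternatives were normexp background correction, quantile, median, spike-in and lowess normalization, no filter on dim probes, bright probes only, the mean of probes, outlier spots kept, and the series table. Of the 9 members past 2-fold, 7 stayed past it under all 10 and none changed sign; Hs3st6 and Acan lost the call with normexp. Of the 34 members between, 3 passed 2-fold under an alternative (Hs3st4 and Chst10 with spike-in scaling, Chst2 as the mean of its probes), and 10 changed sign: Ext2, Hs3st1, Chst3, Chst11, Chst12 and Gpc4 with spike-in scaling, Chst12 also with median scaling, Gpc5 and Hs6st2 with normexp, Hs6st2 also with lowess and the series table, Sdc2 with quantile and lowess, and Bcan as the mean of its probes. Of the pathway list genes short of 2-fold, 6 passed it under an alternative, all upward: Agrn, Arsb, Idua, Ptn, Ptprs and Slc26a1. The number of lower members was 5 as reported, 3 with normexp and 8 with no filter, where 54 members enter. Their median difference was 0.16 with median scaling and 0.30 with spike-in scaling, against 0.05. Over all genes, 1895 were higher as reported, 1204 with normexp, 2851 with spike-in scaling and 3641 with no filter; 2264 were lower as reported and 4395 with no filter. Dim genes such as Gpc2, Acan and Hs3st6 depend most on background correction. No paired analysis was possible because there is 1 array per group.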
